A study of Homo sapiens with 12 samples.

Results

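The genes described here are 35 protein-coding genes known as targets of androgen signalling, chosen by name and found as 35 of the 60106 genes in the tables of all 12 libraries. They comprise 9 surface antigens and secreted or membrane enzymes, 6 transporters, channels and receptors, 7 metabolic enzymes, 5 transcription and elongation factors, and 8 chaperone, kinase, trafficking, centromere and other genes. The libraries came from PC3 and VCaP, 2 established lines of human prostate cancer, whose RNA was sequenced 72 h after transfection of siRNA with RNAiMax. In each line, 3 libraries had received non-targeting siRNA (NSI) and 3 had received siRNA against FOXA1 (siFOXA1). PC3 was given 20 nM siRNA, grew in RPMI-1640 and was sequenced from polyA RNA with the TruSeq stranded mRNA kit. For VCaP the dose was 40 nM, the medium DMEM and the kit TruSeq total RNA. Both media held foetal calf serum. The line therefore cannot be told apart from the dose, the medium, the library kit and the use of strand in counting, and no label gave a batch. The labels do not say that the 3 libraries of a group came from separate cultures, so p-values measure the spread between these libraries, which may be technical.

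As background, androgens control the secretory program of the prostate epithelium, largely through enhancers that carry androgen response elements, from which transcription of target genes is raised or lowered. FOXA1 is a forkhead protein that binds nucleosomal DNA and opens the chromatin of many of these enhancers. Many classical androgen targets encode the secretory and surface proteins of the luminal prostate cell, and VCaP carries a fusion of TMPRSS2 to ERG.

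The PC3 libraries held 123140099 to 188226483 counts and the VCaP libraries 48187047 to 59839211. Levels are given as CPM, counts scaled by the total and TMM factor of the library, or, where genes are compared with each other, as RPKM, which also divides by exon length. All 6 epithelial markers (EPCAM, CDH1, KRT8, KRT18, KRT19 and CLDN7) were above 1 CPM in both lines. Of 6 prostate luminal markers, all were above 1 CPM in VCaP, whereas 3, KLK2 and KLK3 among them, were below it in PC3. Summed fibroblast markers were at 10.7 to 19.5 CPM with NSI against 1.33 to 5.53 CPM with siFOXA1 in VCaP, and at 27.4 to 32.8 CPM with NSI against 44.3 to 48.7 CPM with siFOXA1 in PC3. Summed endothelial markers (3 of 4 found) were at 4.01 to 4.702 CPM with NSI against 1.77 to 2.12 CPM with siFOXA1 in VCaP and at 24.2 to 32.8 CPM with NSI against 21.1 to 25.9 CPM with siFOXA1 in PC3, and summed leukocyte markers were at 0.921 to 1.29 CPM with NSI against 2.43 to 3.20 CPM with siFOXA1 in VCaP and at 0.511 to 0.624 CPM with NSI against 1.13 to 1.22 CPM with siFOXA1 in PC3. Mitochondrial genes took 3.02 to 3.29% of counts in VCaP NSI libraries against 4.04 to 4.69% after siFOXA1, and 13.1 to 15.7% against 13.4 to 14.9% in PC3. The part of these differences in the results was not tested.

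FOXA1, the targeted gene, read 458, 468 and 544 CPM in the NSI libraries of VCaP and 85.2, 73.6 and 83.1 CPM after siFOXA1, a log2 change of −2.60 (SE 0.09, adjusted p = 1.84e-07) by edgeR's quasi-likelihood test with Benjamini-Hochberg adjustment over all genes. In PC3 it read 296, 247 and 261 CPM and then 165, 184 and 164 CPM, a change of −0.65 (SE 0.10, adjusted p = 0.00222). FOXA1 was thus left at 16.5% of the NSI mean in VCaP and at 63.8% in PC3, with no overlap of the groups in either line. A gene is called here at an adjusted p under 0.05.

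The targets were expressed at very different levels in the NSI libraries. In VCaP their mean level ran from 0.282 to 606 RPKM with a median of 15.4, and 33 of 35 were above 1 RPKM. In PC3 the median was 3.11 RPKM, the highest level was 34.6 RPKM for TSC22D1, and 23 of 35 were above 1 RPKM. ACPP, the secreted prostatic acid phosphatase, was the most highly expressed target in VCaP at 606 RPKM, followed by FOLH1, the prostate-specific membrane antigen, at 111 RPKM. The same 2 genes were at 0.961 RPKM and at 0 in the NSI libraries of PC3. FOLH1, MAF, CHRNA2 and OPRK1 were below the filter on low counts in PC3, where each had at most 10 counts in any library, and were tested in VCaP only. A count of 0 still allows 3 counts in a library, or 0.0159 to 0.0212 CPM in the PC3 NSI libraries.

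**Figure D1:**
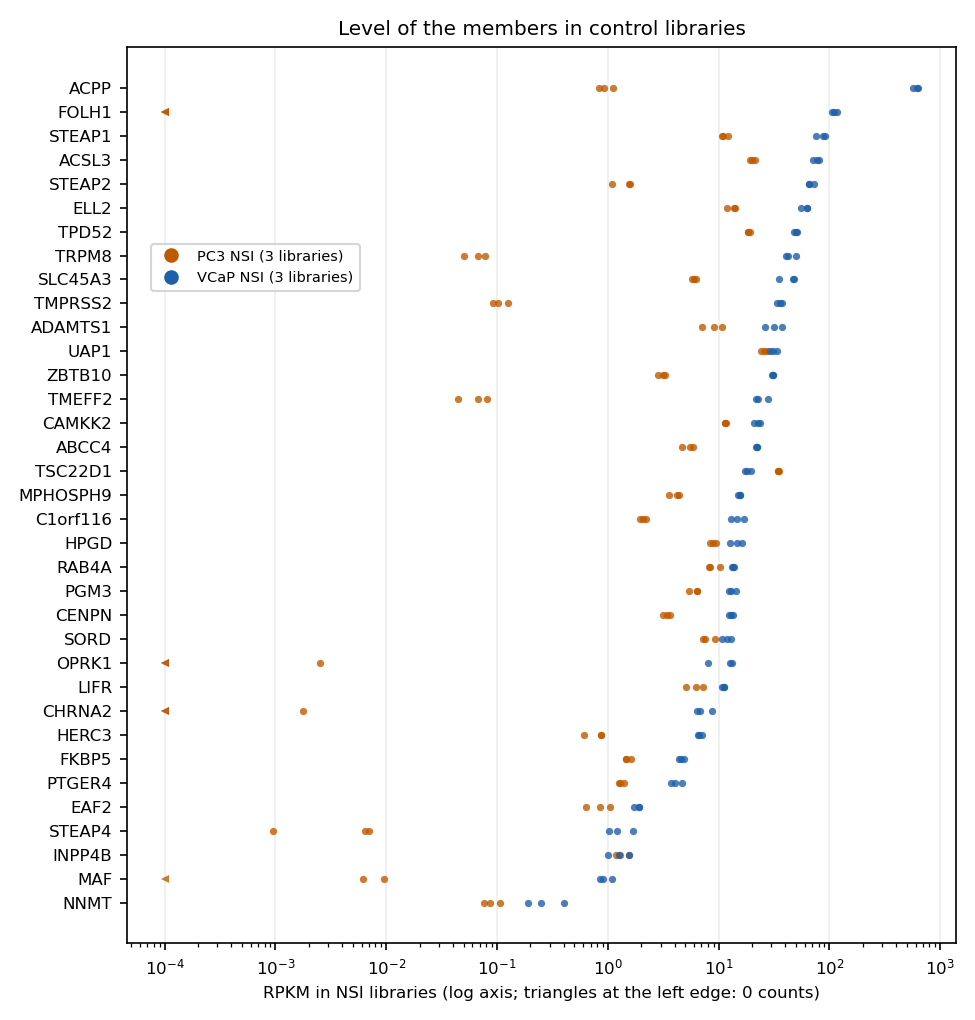
RPKM (log axis) of each of the 35 androgen targets in the 3 NSI libraries of PC3 (orange) and of VCaP (blue), 1 point per library, ordered by the VCaP mean; triangles mark 0 counts. Most targets lie further right in VCaP, with ACPP at 606 RPKM on average, and TSC22D1 is the highest in PC3.

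Promoter windows of 300 bases (250 before to 50 after an annotated start, RefSeq, GRCh38.p14) were found for 25 of the 35 targets, 48 windows in all; ADAMTS1, CHRNA2, ELL2, FOLH1, NNMT, OPRK1, SORD, TMPRSS2, TPD52 and ZBTB10 had none in the table used. They were searched on both strands for the forkhead core TGTTTAC or TATTTAC, for AGAACA, a single arm of the androgen response element, and for the whole element, AGAACA followed after 3 free bases by TGTTCT, which contains that arm on each strand. A forkhead core was in 6 of the 48 windows (12.5%), beside 5.97% of 35116 windows of the same length in the table, and belonged to ACPP, INPP4B, LIFR, STEAP2 and TRPM8. Windows of the same gene are not independent, and INPP4B had a core in windows 1 and 6 of its 6. The single arm was in 4 of 48 windows (8.33%; all windows 14.8%), those of FKBP5, LIFR, TRPM8 and TSC22D1, and the whole element was in none of them and in 1 of all windows. The stretches around 4 of the forkhead cores follow, with the core in capitals and read 5′ to 3′ on the strand of the gene. They are shown because the levels of ACPP, STEAP2 and TRPM8 went in opposite directions in the lines and INPP4B rose in VCaP. They are at chr3:132317265-132317331 (plus strand) for ACPP, where the core starts 112 bases before the start, at chr7:90213724-90213790 (plus) for STEAP2, 66 bases before, at chr2:233953562-233953628 (plus) for TRPM8, 161 bases before, and at chr4:142405985-142406051 (minus) for INPP4B, 162 bases before. In STEAP2 and INPP4B the core is on the opposite strand and is printed as its reverse complement. ACPP has 1 window. The stretches of STEAP2 (window 2 of 2), TRPM8 (4 of 6) and INPP4B (1 of 6) each lie before 1 of several annotated starts. Apart from window 6 of INPP4B, the other windows of these genes held no forkhead core. The other targets of opposite direction, C1orf116, FKBP5, HERC3, PTGER4 and STEAP4, had windows and no forkhead core in them. LIFR, which had a core, was called higher in both lines.
ACPP: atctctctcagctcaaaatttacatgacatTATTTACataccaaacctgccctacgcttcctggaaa
STEAP2: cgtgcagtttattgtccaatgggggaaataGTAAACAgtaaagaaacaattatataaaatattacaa
TRPM8: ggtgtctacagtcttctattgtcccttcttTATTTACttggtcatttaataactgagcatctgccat
INPP4B: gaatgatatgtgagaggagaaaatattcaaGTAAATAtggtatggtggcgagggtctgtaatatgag
The 250 bases before the start of SLC45A3, the target with the deepest fall in VCaP, are shown in lower case at chr1:205680510-205680759 (minus strand), since none of the motifs was found in them.
SLC45A3: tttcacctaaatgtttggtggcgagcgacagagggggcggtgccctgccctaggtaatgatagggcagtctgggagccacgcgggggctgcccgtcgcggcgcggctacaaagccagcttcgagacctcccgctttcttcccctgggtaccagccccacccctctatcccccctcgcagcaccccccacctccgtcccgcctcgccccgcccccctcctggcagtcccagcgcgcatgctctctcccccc
A match describes letters and not a bound site, and no match says only that these letters are not in the window; enhancers, where FOXA1 largely binds, were not searched.

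In VCaP, most androgen targets fell after siFOXA1. All 35 were tested: 22 were called lower, 5 higher and 8 were not called. Thus 77.1% of the targets were called, where 45.8% of all genes tested were (23.3% lower and 22.5% higher). The median log2 fold change of the targets was −0.53, beside 0.02 over all genes. SLC45A3, CHRNA2, ACPP, TMEFF2, PTGER4, TRPM8, SORD and STEAP1 were lower by more than 1 on the log2 scale, a size that 4.75% of all genes reached, and FKBP5 alone was higher by more than 1 (all genes: 7.69%). The libraries of the groups did not overlap for 19 targets that were lower and 6 that were higher in siFOXA1, against 28% and 27.9% of all genes. These are bulk samples, in which fewer cells of a type and less RNA per cell cannot be told apart.

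**Figure D2:**
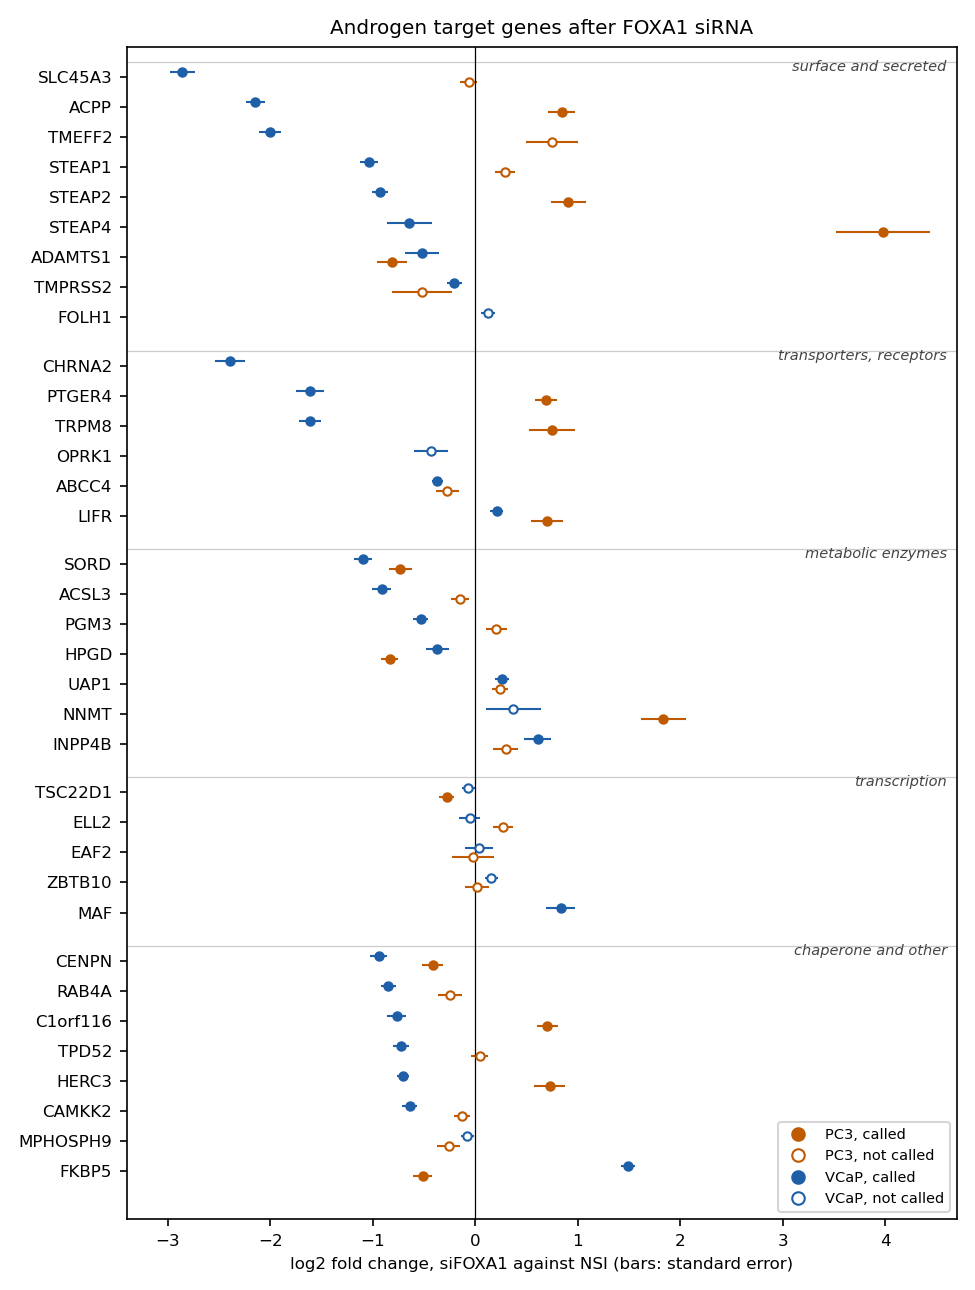
Log2 fold change of siFOXA1 against NSI (horizontal axis) for each target in VCaP (blue) and PC3 (orange), grouped by role; bars are the standard error of edgeR's estimate over 3 against 3 libraries, filled points passed the test and open points did not. The blue points of the surface and secreted genes lie left of 0 except FOLH1, while 3 orange points of that group (STEAP4, STEAP2 and ACPP) are filled and to the right.

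Among the surface antigens and secreted or membrane enzymes, 8 of 9 were called lower in VCaP and none higher, with a median log2 fold change of −0.93. SLC45A3 (prostein, a transporter-like membrane protein of prostate epithelium; chr1:205626979-205649587, minus strand on GRCh37) read 159, 118 and 158 CPM in the NSI libraries against 20.0, 18.6 and 21.4 CPM after siFOXA1. Every siFOXA1 library was far below every NSI library, the mean was 13.8% of the NSI mean, and the log2 fold change was −2.86 (SE 0.12, adjusted p = 3.43e-07). ACPP (chr3:132036211-132087142, plus strand) went from 2275, 2366 and 2125 CPM to 559, 470.1 and 496 CPM. ACPP was left at 22.5% of its NSI level with no overlap, a change of −2.15 (SE 0.09, adjusted p = 3.78e-07). At 137 RPKM it still stood above the NSI level of every other target, the next being FOLH1. TMEFF2, a membrane protein with EGF-like and follistatin-like domains, read 144, 148 and 182 CPM with NSI against 43.7, 35.6 and 38.9 CPM with siFOXA1, again without overlap (−2.00, SE 0.11, adjusted p = 1.2e-06).

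The STEAP genes encode membrane proteins related to metalloreductases, and STEAP1 and STEAP2 lie 46.9 kb apart on chromosome 7. In VCaP, STEAP1 read 119, 98.7 and 115 CPM with NSI and 59.6, 50.5 and 52.3 CPM with siFOXA1 (−1.04, SE 0.09, adjusted p = 1.79e-05). STEAP2 read 517, 469 and 471 CPM and then 276, 244 and 245 CPM (−0.93, SE 0.08, adjusted p = 1.53e-05). Both fell to around the same share of their NSI level, 48.8% for STEAP1 and 52.6% for STEAP2, with no overlap of the groups. A related gene, STEAP1B, read at most 2.43 CPM in VCaP, and reads shared between near copies were divided in the counting. STEAP4 was less certain: 19.1, 13.7 and 11.5 CPM with NSI against 11.6, 10.1 and 6.64 CPM with siFOXA1 overlapped by a single pair of libraries, and its call (−0.64, SE 0.22, adjusted p = 0.0391) was lost when a single library was left out, either replicate 1 (adjusted p = 0.137) or 2 (0.0634) of NSI or replicate 2 (0.0642) or 3 (0.0862) of siFOXA1, and in the fit of all 12 libraries (0.0716).

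In VCaP, the secreted protease ADAMTS1, which cleaves proteoglycans, read 193, 163 and 135 CPM with NSI against 137, 118 and 87.4 CPM with siFOXA1. The groups overlapped, and the call (−0.52, SE 0.17, adjusted p = 0.0308) was lost when a single library was left out, either replicate 1 (adjusted p = 0.105) or 2 (0.0677) of NSI or replicate 2 (0.0609) or 3 (0.062) of siFOXA1. TMPRSS2, a membrane serine protease and the best-known androgen-driven fusion partner, was lower by a small margin: 118, 123 and 111 CPM with NSI against 108, 105 and 92.7 CPM with siFOXA1. All 3 siFOXA1 libraries were below the 3 NSI libraries, but the margin was narrow and the call (−0.21, SE 0.07, adjusted p = 0.0474) was lost in 6 alternatives: when a single library was left out, either replicate 1 (adjusted p = 0.0946) or 2 (0.121) of NSI or replicate 2 (0.0865) or 3 (0.129) of siFOXA1, with library size alone (0.0973) and in the fit of all 12 libraries (0.301). FOLH1, a glutamate carboxypeptidase of the cell surface, was the 1 gene of this group that was not called: 322, 288 and 299 CPM with NSI against 344, 334 and 313 CPM with siFOXA1 overlapped (0.12, SE 0.07, adjusted p = 0.186). Its near copy FOLH1B read 27.0 to 31.3 CPM in VCaP, and since reads of near copies can be shared, the FOLH1 level is uncertain.

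Of the 6 transporters, channels and receptors, 4 were called lower and 1 higher in VCaP (median −1.02). CHRNA2, a subunit of nicotinic acetylcholine receptors, read 35.6, 26.4 and 28.1 CPM with NSI and 6.79, 5.59 and 4.78 CPM with siFOXA1. It was left at 19.1% of its NSI mean (−2.39, SE 0.15, adjusted p = 2.42e-06), second only to SLC45A3 among the targets in the size of its fall. TRPM8, the cation channel opened by cold and menthol (chr2:234826043-234928166, plus strand), read 298, 251 and 242 CPM and then 97.2, 84.5 and 76.9 CPM (−1.61, SE 0.11, adjusted p = 3.73e-06). PTGER4, a receptor for prostaglandin E, read 15.4, 14.2 and 18.1 CPM and then 4.96, 4.49 and 6.13 CPM (−1.61, SE 0.13, adjusted p = 1.32e-05). For CHRNA2, TRPM8 and PTGER4 the highest siFOXA1 library lay well below the lowest NSI library.

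ABCC4, which pumps cyclic nucleotides and prostaglandins out of cells, showed a smaller fall, from 140.3, 140.5 and 136 CPM to 109, 105 and 109 CPM (−0.37, SE 0.06, adjusted p = 0.000546), with no overlap. LIFR, the receptor for leukemia inhibitory factor, was the 1 gene of this group called higher, at 115, 116.05 and 112 CPM with NSI against 132, 126 and 138 CPM with siFOXA1 (0.21, SE 0.06, adjusted p = 0.0189). The LIFR groups did not overlap, but the rise was lost without NSI replicate 1 (0.067), siFOXA1 replicate 1 (0.0532) or siFOXA1 replicate 3 (0.0532), with library size alone (0.0513) and in the fit of all 12 libraries (0.222). OPRK1, the kappa opioid receptor, read 46.1, 72.9 and 75.2 CPM with NSI against 42.0, 48.9 and 53.0 CPM with siFOXA1. These libraries overlapped and the test was not passed (−0.43, SE 0.17, adjusted p = 0.0604), whereas it was passed without NSI replicate 1 (−0.64, adjusted p = 0.00101), without siFOXA1 replicate 3 (−0.51, adjusted p = 0.0498), with library size alone, with DESeq2 and with no filter on low counts.

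**Figure D3:**
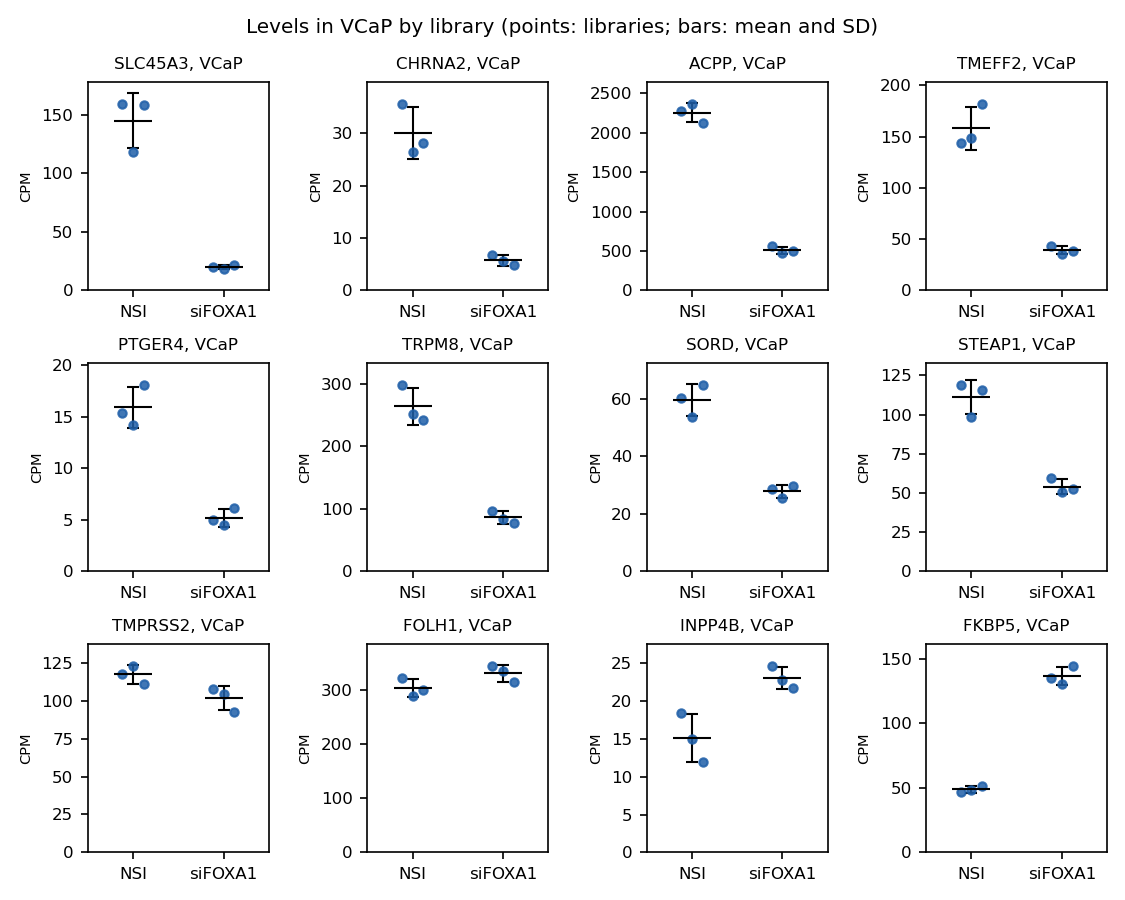
CPM in each of the 6 VCaP libraries (points; vertical axes start at 0), with the mean and SD of each group (bars, n = 3), for 12 of the targets. FOLH1 shows overlapping groups, TMPRSS2 a narrow gap, SLC45A3, CHRNA2, ACPP, TMEFF2, PTGER4, TRPM8, SORD and STEAP1 lower siFOXA1 libraries, and INPP4B and FKBP5 higher ones.

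Among the 7 metabolic enzymes, 4 were called lower and 2 higher in VCaP. SORD, which converts sorbitol to fructose, read 60.2, 53.6 and 64.8 CPM with NSI against 28.7, 25.4 and 29.6 CPM with siFOXA1 (−1.10, SE 0.09, adjusted p = 8.89e-06). ACSL3, which activates long-chain fatty acids, read 453, 439 and 400.3 CPM and then 250.1, 232 and 204 CPM (−0.91, SE 0.09, adjusted p = 3.89e-05). Both were without overlap, SORD at 46.8% and ACSL3 at 53.1% of the NSI mean. PGM3 and UAP1 catalyse consecutive steps in making the sugar nucleotide UDP-N-acetylglucosamine, and they went in opposite directions. PGM3 was at 91.3, 81.9 and 78.3 CPM with NSI against 60.9, 57.7 and 55.3 CPM with siFOXA1 (−0.53, SE 0.07, adjusted p = 0.000277). UAP1 was at 69.6, 73.6 and 79.7 CPM with NSI against 88.2, 87.8 and 90.9 CPM with siFOXA1 (0.26, SE 0.06, adjusted p = 0.00926). Neither pair of groups overlapped, but the UAP1 rise was lost without NSI replicate 1 (adjusted p = 0.0516).

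INPP4B, a phosphoinositide phosphatase that opposes PI3K signalling, rose from 18.4, 15.0 and 12.0 CPM to 24.6, 22.7 and 21.7 CPM in VCaP (0.61, SE 0.13, adjusted p = 0.00504), with every siFOXA1 library above every NSI library. HPGD, which degrades prostaglandins, read 75.3, 68.0 and 58.4 CPM with NSI against 59.7, 50.6 and 45.7 CPM with siFOXA1. The HPGD groups overlapped, and its call (−0.37, SE 0.11, adjusted p = 0.0242) was lost when a single library was left out, either replicate 1 (adjusted p = 0.0811) or 2 (0.061) of NSI or replicate 2 (0.0706) or 3 (0.0628) of siFOXA1. NNMT, which methylates nicotinamide, was the lowest target in VCaP, with 1.00, 0.618 and 0.469 CPM with NSI against 0.992, 0.795 and 0.895 CPM with siFOXA1. It overlapped between groups and was not called (0.37, SE 0.27, adjusted p = 0.292), although it passed without NSI replicate 1 (0.71, adjusted p = 0.04).

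Of the 5 transcription and elongation factors, none was called lower in VCaP, 1 was called higher and 4 were not called (median 0.03). MAF, a basic leucine zipper factor, was the one called, at 7.66, 6.32 and 5.94 CPM with NSI against 13.1, 12.8 and 9.52 CPM with siFOXA1, with no overlap (0.83, SE 0.14, adjusted p = 0.00122). ELL2, an elongation factor for RNA polymerase II, read 377, 378 and 333 CPM and then 391, 355 and 299 CPM (−0.06, SE 0.10, adjusted p = 0.688). Its partner EAF2 read 2.23, 2.21 and 2.00 CPM and then 2.30, 2.39 and 1.90 CPM (0.03, SE 0.14, adjusted p = 0.865). In both cases the groups overlapped. The zinc finger gene ZBTB10 stood at 314 ± 1.83 CPM with NSI against 350.4 ± 12.2 CPM with siFOXA1 (SD, n = 3), groups that did not overlap, yet it did not pass the test (0.16, SE 0.06, adjusted p = 0.068). TSC22D1, a leucine zipper protein induced by TGF-beta, stood at 123 ± 7.40 CPM and 117 ± 4.42 CPM with overlap (−0.07, SE 0.07, adjusted p = 0.443).

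Of the remaining 8 targets, 6 were called lower and FKBP5 alone higher in VCaP. FKBP5, a co-chaperone of HSP90 that binds steroid receptor complexes and is a widely used androgen- and glucocorticoid-response gene (chr6:35541362-35696360, minus strand), read 46.5, 48.2 and 51.5 CPM with NSI against 135, 130.3 and 144 CPM with siFOXA1. All siFOXA1 libraries were above all NSI libraries by a wide margin, the mean rose 2.80-fold, and the log2 fold change was 1.49 (SE 0.07, adjusted p = 4.43e-07), the highest of the 35 targets in this line. CENPN, a kinetochore protein, read 42.3, 38.9 and 41.2 CPM with NSI against 23.3, 21.3 and 19.0 CPM with siFOXA1 (−0.94, SE 0.08, adjusted p = 1.5e-05). RAB4A, a GTPase of recycling endosomes, read 40.9, 40.0 and 41.6 CPM and then 23.9, 20.1 and 24.0 CPM (−0.85, SE 0.08, adjusted p = 2.13e-05). Both fell without overlap. RAB4A shares 21.3% of its exon length with SPHAR on the same strand, and reads there were divided between the genes.

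In VCaP, C1orf116, a gene also named for its androgen regulation, was at 92.9, 80.0 and 71.5 CPM with NSI against 45.3, 47.4 and 50.7 CPM with siFOXA1 (−0.77, SE 0.09, adjusted p = 0.000149). HERC3, a HECT-type ubiquitin ligase, was at 44.7, 42.2 and 41.6 CPM and then 27.2, 25.2 and 26.3 CPM (−0.71, SE 0.06, adjusted p = 1.32e-05). CAMKK2, a calcium/calmodulin-dependent kinase upstream of AMPK, and TPD52, a vesicle-trafficking protein, were lower as well. CAMKK2 fell from 144 ± 9.34 CPM to 92.8 ± 5.49 CPM (SD, n = 3; −0.64, SE 0.07, adjusted p = 9.36e-05). TPD52 fell from 243 ± 7.43 CPM to 147 ± 14.3 CPM (−0.73, SE 0.08, adjusted p = 7.89e-05), with 17.9% of its exon length shared with a gene on the same strand. None of these 4 genes overlapped between the groups. MPHOSPH9, a centrosomal protein, stood at 97.6 ± 1.76 CPM and 92.5 ± 5.97 CPM, with overlap and without a call (−0.08, SE 0.06, adjusted p = 0.353).

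In PC3 the targets did not share a direction. Of the 31 targets that passed the filter on low counts, 6 were called lower, 9 higher and 16 were not called, so that 48.4% were called beside 27% of all genes tested (12.1% lower and 15% higher). Their median log2 fold change was 0.04, beside 0.02 over all genes. The groups did not overlap for 8 targets that were lower and 13 that were higher in siFOXA1 (all genes: 20.5% and 23.9%). Libraries of PC3 with the same replicate number deviated together, so the fit was repeated with that number as a block, in which 9 targets were called lower and 15 higher (all genes: 21% and 21.7%).

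The targets called higher in PC3 were STEAP4, NNMT, STEAP2, ACPP, TRPM8, HERC3, LIFR, C1orf116 and PTGER4. STEAP4 was close to the limit of detection in NSI: its counts were 12, 10 and 2 in the NSI libraries and 153, 87 and 147 in the siFOXA1 libraries, or 0.0794, 0.0726 and 0.0108 CPM against 0.923, 0.699 and 0.858 CPM. All siFOXA1 libraries were above all NSI libraries, with a log2 change of 3.98 (SE 0.46, adjusted p = 0.000513), and even then STEAP4 stayed under 1 CPM. An antisense gene overlaps 6.65% of the exon length of STEAP4, and the PC3 counts did not use strand, so reads of the pair cannot be told apart there. NNMT read 0.212, 0.261 and 0.188 CPM with NSI against 0.754, 0.892 and 0.706 CPM with siFOXA1, with no overlap (1.83, SE 0.22, adjusted p = 0.000633). Only STEAP4 and NNMT of the targets tested rose by more than 1 on the log2 scale in PC3, a size that 6.49% of all genes reached.

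ACPP stood at 3.12, 4.18 and 3.42 CPM in the NSI libraries of PC3 and at 6.15, 6.52 and 6.54 CPM in the siFOXA1 libraries (0.84, SE 0.13, adjusted p = 0.00243). STEAP2 stood at 11.3, 7.78 and 11.2 CPM and then at 20.4, 15.6 and 20.7 CPM (0.91, SE 0.17, adjusted p = 0.00541). Each rose by less than 2-fold on the mean, 1.79-fold for ACPP and 1.88-fold for STEAP2, with no overlap. PTGER4 went from 4.88, 4.93 and 5.38 CPM to 7.73, 9.06 and 7.71 CPM (0.69, SE 0.11, adjusted p = 0.00283), HERC3 from 5.50, 3.90 and 5.55 CPM to 8.96, 7.63 and 8.13 CPM (0.73, SE 0.15, adjusted p = 0.00919). C1orf116 went from 11.4, 10.6 and 12.3 CPM to 17.4, 18.1 and 20.2 CPM (0.70, SE 0.10, adjusted p = 0.0017). In all of these the lowest siFOXA1 library exceeded the highest NSI library. LIFR read 74.5, 53.3 and 65.6 CPM with NSI against 113, 84.2 and 117 CPM with siFOXA1 (0.70, SE 0.16, adjusted p = 0.0124), without overlap, and lost its call without siFOXA1 replicate 1 (adjusted p = 0.054) or siFOXA1 replicate 3 (0.0606).

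TRPM8 had 61, 64 and 56 counts in the NSI libraries of PC3 and 93, 85 and 122 in the siFOXA1 libraries, or 0.404, 0.464 and 0.301 CPM against 0.561, 0.683 and 0.712 CPM. The groups did not overlap, but the level was under 1 CPM throughout and the call was marginal (0.75, SE 0.23, adjusted p = 0.04). It was lost without the filter on low counts (0.0513) and without replicate 1 (0.0771) or 3 (0.126) of NSI or replicate 1 (0.0688), 2 (0.0896) or 3 (0.125) of siFOXA1.

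The targets called lower in PC3 were HPGD, ADAMTS1, SORD, FKBP5, CENPN and TSC22D1, none by more than 1 on the log2 scale (all genes: 2.83%). HPGD read 39.2, 41.1 and 43.8 CPM with NSI against 22.3, 23.4 and 23.8 CPM with siFOXA1 (−0.84, SE 0.08, adjusted p = 0.000262). ADAMTS1 read 47.4, 55.6 and 36.4 CPM and then 26.1, 27.6 and 25.8 CPM (−0.81, SE 0.14, adjusted p = 0.00442). Their siFOXA1 libraries were all below their NSI libraries, at 56.0% of the NSI mean for HPGD and 56.9% for ADAMTS1. SORD went from 36.3, 46.4 and 38.1 CPM to 22.4, 26.0 and 24.5 CPM (−0.73, SE 0.11, adjusted p = 0.00248). FKBP5 went from 17.1, 15.4 and 15.5 CPM to 11.04, 10.9 and 11.7 CPM (−0.51, SE 0.09, adjusted p = 0.00446), left at 70.0% of its NSI mean without overlap.

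In the same line CENPN was at 10.7, 11.4 and 9.98 CPM with NSI against 7.79, 8.52 and 7.77 CPM with siFOXA1 (−0.42, SE 0.10, adjusted p = 0.0164), with no overlap. This call was lost without siFOXA1 replicate 1 (0.0796). TSC22D1 was at 235, 229 and 231 CPM and then 188, 195 and 189 CPM (−0.28, SE 0.08, adjusted p = 0.0254), also without overlap. Its call was lost with library size alone (0.0598) and without replicate 1 (0.0715) or 3 (0.0855) of NSI or replicate 1 (0.117) or 3 (0.068) of siFOXA1. Genes on the opposite strand overlap 21.9% of the exon length of CENPN, 14.3% of that of TSC22D1, 13.5% of that of PGM3 and 8.49% of that of SORD, and the PC3 counts cannot separate them.

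The other 16 targets tested in PC3 were not called, and the replicate block added 9 of them. ABCC4 was lower in that fit at −0.27 (adjusted p = 0.00585), MPHOSPH9 at −0.26 (adjusted p = 0.00855) and RAB4A at −0.24 (adjusted p = 0.0112). Those higher were TMEFF2 at 0.77 (adjusted p = 0.0178), INPP4B at 0.30 (adjusted p = 0.00666), STEAP1 at 0.29 (adjusted p = 0.00787), ELL2 at 0.27 (adjusted p = 0.00573), UAP1 at 0.24 (adjusted p = 0.00817) and PGM3 at 0.20 (adjusted p = 0.0199). All 9 were small changes, under 0.31 on the log2 scale except TMEFF2, whose level was under 1 CPM in every PC3 library. Without the block, ABCC4 (0.0227), MPHOSPH9 (0.0276), STEAP1 (0.0284) and TMEFF2 (0.0288) also passed when NSI replicate 2 was left out. TMEFF2 passed as well with DESeq2 (0.0395), with library size alone (0.0445) and in the fit of all 12 libraries (0.00927). STEAP1 (0.0298 and 0.0294) and UAP1 (0.0301 and 0.0294) passed with library size alone and in the fit of all 12 libraries, and ELL2 with library size alone (0.0425). SLC45A3, with the deepest fall in VCaP, read 19.8, 19.2 and 21.1 CPM in the NSI libraries of PC3 and 19.4, 18.8 and 19.3 CPM in the siFOXA1 libraries, groups that overlapped (−0.07, SE 0.08, adjusted p = 0.594). TMPRSS2 had 46, 58 and 63 counts in the NSI libraries of PC3 against 42, 20 and 54 in the siFOXA1 libraries and did not pass the test (−0.52, SE 0.29, adjusted p = 0.216). ACSL3, CAMKK2, TPD52, EAF2 and ZBTB10 were called in neither PC3 fit, with log2 fold changes of −0.15, −0.13, 0.04, −0.02 and 0.02.

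Of the 4 targets below the filter in PC3, FOLH1 had 0 counts over the 3 NSI libraries and 1 over the 3 siFOXA1 libraries, CHRNA2 1 and 2, OPRK1 2 and 4, and MAF 18 and 6. These counts were too few for a test in PC3.

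Set side by side from the fits without the block, 13 targets were called in both lines. That is 86.7% of the 15 calls in PC3, beside VCaP calls for 45.8% of all genes tested and 77.1% of the targets. It is also 48.1% of the 27 calls in VCaP, beside PC3 calls for 27% of all genes tested and 48.4% of the targets tested. The direction was the same for 5: LIFR was higher, and ADAMTS1, CENPN, HPGD and SORD were lower, in both lines. Of these, only SORD kept its call in both lines under every alternative run. The direction was opposite for 8: ACPP, C1orf116, HERC3, PTGER4, STEAP2, STEAP4 and TRPM8 fell in VCaP and rose in PC3, and FKBP5 rose in VCaP and fell in PC3. Among the 8, STEAP4 in VCaP and TRPM8 in PC3 lost their call under some alternatives, and the others kept theirs. A further 10 targets fell in VCaP without a call in PC3 (ABCC4, ACSL3, CAMKK2, PGM3, RAB4A, SLC45A3, STEAP1, TMEFF2, TMPRSS2 and TPD52). INPP4B and UAP1 rose in VCaP without a call in PC3, NNMT rose and TSC22D1 fell in PC3 without a call in VCaP, and EAF2, ELL2, MPHOSPH9 and ZBTB10 were called in neither line. With the PC3 calls taken from the fit with the replicate block instead, 20 targets were called in both lines, of which 9 moved alike and 11 oppositely. ABCC4 and RAB4A (lower) and INPP4B and UAP1 (higher) joined those of the same direction, STEAP1, TMEFF2 and PGM3 those that fell in VCaP and rose in PC3, and ELL2 (higher) and MPHOSPH9 (lower) were then called in PC3 but not in VCaP. The share of all genes called in both lines, alike or oppositely, was not counted for either fit. The counts of shared and opposite calls therefore do not show whether either was particular to the targets.

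**Figure D4:**
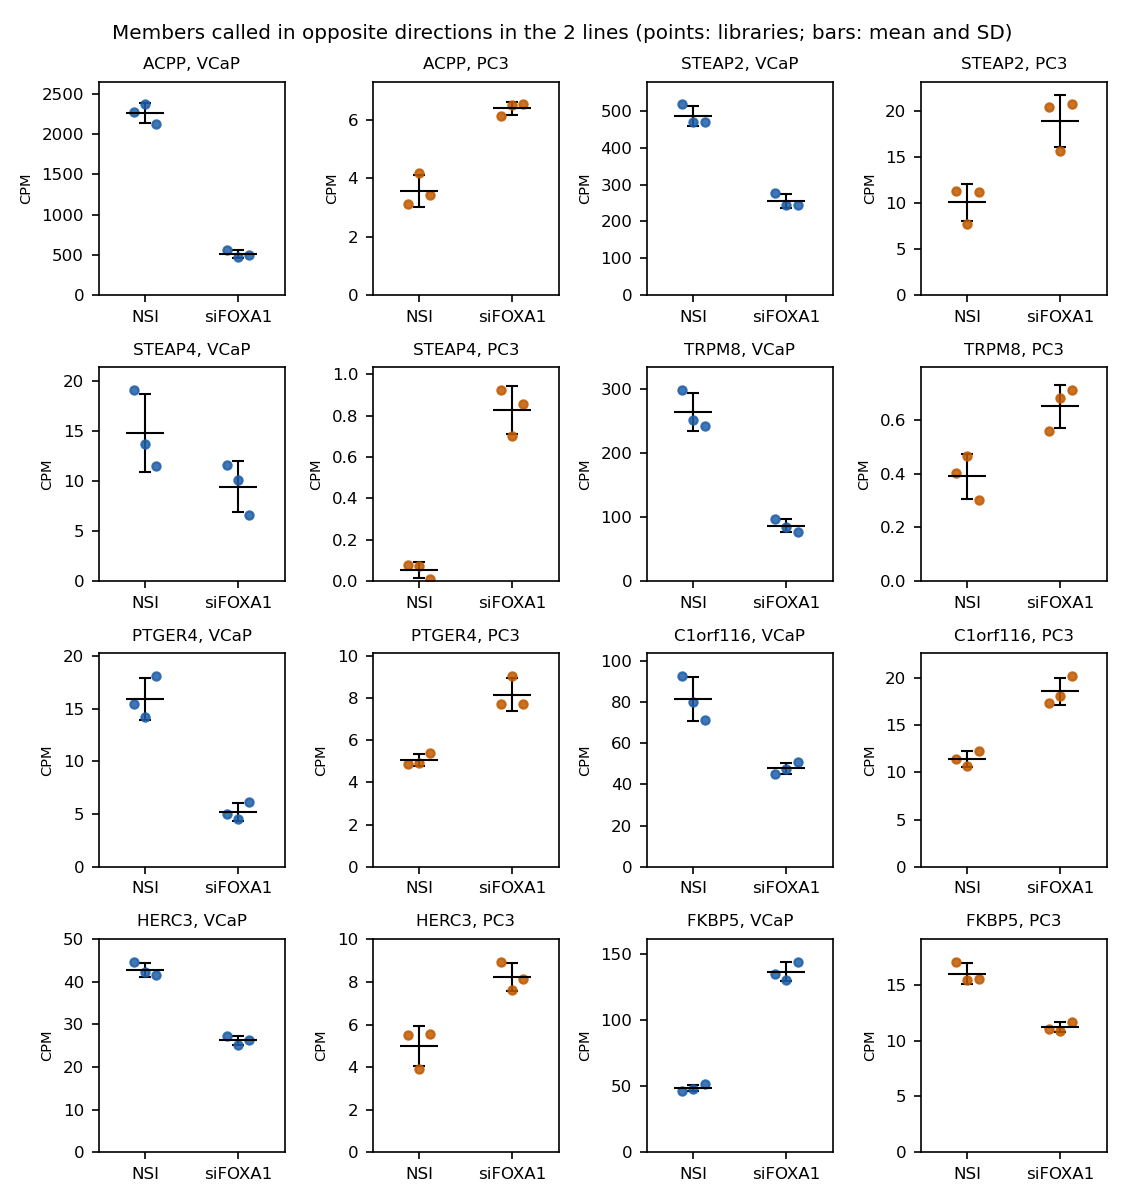
CPM per library (points; each panel has its own axis from 0) with the mean and SD of each group (bars, n = 3) for the 8 targets called in opposite directions without the block, VCaP panels in blue and PC3 panels in orange. In 7 genes the siFOXA1 points are lower in VCaP and higher in PC3, FKBP5 shows the reverse, and the PC3 levels of STEAP4 and TRPM8 are under 1 CPM.

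The difference between the lines was tested directly as the VCaP change minus the PC3 change in a fit of all 12 libraries. It was called for 19 of 35 targets (54.3%, beside 22.2% of all genes), 17 with the more negative change in VCaP and 2 with the more positive one (all genes: 11% and 11.3%). All 8 targets with opposite calls without the block were among them, from STEAP4 at −4.62 (SE 0.48, adjusted p = 6.07e-06) and ACPP at −2.97 (SE 0.16, adjusted p = 7.54e-09) to FKBP5 at 2.02 (SE 0.12, adjusted p = 2.24e-08). These 8 were picked by calls from the same libraries, so their difference calls are not separate support. SLC45A3, called in VCaP and not in PC3, differed by −2.77 (SE 0.16, adjusted p = 1.56e-08), and TMEFF2 by −2.74 (SE 0.24, adjusted p = 1.19e-06). CENPN fell in both lines, with the larger fall in VCaP by −0.51 (SE 0.13, adjusted p = 0.00877). HPGD fell in both with the larger fall in PC3, a difference of 0.49 (SE 0.15, adjusted p = 0.0306) that did not hold with library size alone (0.131) or without any one library other than VCaP NSI replicate 1 and VCaP siFOXA1 replicate 3 (adjusted p up to 0.151). The remaining calls were more negative in VCaP: NNMT (−1.44), STEAP1 (−1.30), TPD52 (−0.75), ACSL3 (−0.74), PGM3 (−0.72), RAB4A (−0.58) and CAMKK2 (−0.49), beside the other opposite genes TRPM8 (−2.35), PTGER4 (−2.28), STEAP2 (−1.81), C1orf116 (−1.45) and HERC3 (−1.41). With the replicate block, in which 29% of all genes were called, LIFR (−0.47, adjusted p = 0.00224), SORD (−0.35, adjusted p = 0.0111), ELL2 (−0.31, adjusted p = 0.0257) and INPP4B (0.34, adjusted p = 0.0405) also passed. Without the block, LIFR passed with library size alone (0.0396) and with no filter on low counts (0.0377). It passed too when PC3 NSI replicate 1 (0.0346) or PC3 siFOXA1 replicate 2 (0.00744) was left out. SORD, also without the block, passed with library size alone (0.0389) and when PC3 NSI replicate 2 was left out (0.0122). FOLH1, MAF, CHRNA2 and OPRK1 entered this fit through their VCaP counts, and no difference is read for them. For ADAMTS1, ABCC4 and UAP1 no difference was called in either fit, with estimates of 0.31 (SE 0.23, adjusted p = 0.396), −0.08 (SE 0.14, adjusted p = 0.781) and 0.04 (SE 0.12, adjusted p = 0.9). Since the line cannot be told apart from the dose, the depth of FOXA1 loss, the kit and the medium, these differences are between the 2 experiments as run.

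Across the targets, the level in the NSI libraries and the change after siFOXA1 had a Spearman correlation of −0.33 over 35 genes in VCaP and −0.51 over the 31 tested in PC3. This is a description across genes, which are not replicates and share their libraries, and the NSI value enters both measures.

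The other genes of the pathway moved in both directions. Of 27 nuclear receptors and their co-regulators tested in VCaP, 10 were lower and 7 higher (median −0.09), and of 27 in PC3, 7 and 2 (median −0.08); these lists include FOXA1. The shares called were 63% in VCaP and 33.3% in PC3, beside 45.8% and 27% of all genes tested, so that in PC3 the list lay near the share over all genes. Of 7 tested genes of androgen synthesis and uptake, 0 were lower and 4 higher in VCaP, and 0 and 2 in PC3, shares of 57.1% and 28.6%, the PC3 one again near that of all genes. In a wider list of androgen-responsive genes that holds none of the 35, 25 of 79 were lower and 21 higher in VCaP (median −0.03), and 19 of 77 were lower and 15 higher in PC3 (median −0.09). The shares called in the wider list were 58.2% in VCaP and 44.2% in PC3, beside the same 45.8% and 27% of all genes (lower 23.3% and 12.1%, higher 22.5% and 15%). The epithelial ETS factor SPDEF fell in both lines, in VCaP from 178 ± 17.6 to 21.2 ± 2.93 CPM (log2 fold change −3.07, adjusted p = 2.17e-07) and in PC3 from 89.1 ± 4.03 to 34.6 ± 2.72 CPM (log2 fold change −1.36, adjusted p = 2.64e-05). The kinase SGK1 rose in both lines, in VCaP from 2.15 ± 0.282 to 13.1 ± 0.683 CPM (log2 fold change 2.60, adjusted p = 3.83e-07) and in PC3 from 5.42 ± 0.742 to 13.6 ± 1.26 CPM (log2 fold change 1.32, adjusted p = 0.000227). The progesterone receptor PGR rose in VCaP from 6.53 ± 0.872 to 19.9 ± 2.69 CPM (log2 fold change 1.61, adjusted p = 9.1e-06), and the glucocorticoid receptor NR3C1 rose there by 0.30 (SE 0.08, adjusted p = 0.0111) and was not called in PC3 (−0.08, adjusted p = 0.658). Each ± is an SD over 3 libraries. Whether PGR or NR3C1 had a part in the change of any target was not tested. Other wider-list genes with large changes in VCaP were AKT1 (−1.67) and LMAN1 (−1.42), which fell, and MERTK (1.79) and DNAJB9 (1.57), which rose. Those in PC3 were PMEPA1 (−1.65), HOMER2 (−1.30) and GPD1L (−1.28), which fell, and B2M (1.32), PTK2B (0.94) and ALDH1A3 (0.88), which rose.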

How the data were processed

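RNA was sequenced from 12 libraries, 3 for each siRNA in each line, grouped and numbered by their titles. The deposited values are expected counts per gene, not normalized, in a table for each library. The authors obtained these estimated counts with featureCounts 2.0.0, per the file headers, from the exons of each gene in GENCODE v28lift37 basic on GRCh37. Both ends of a fragment had to map, a fragment with several hits or genes was divided among them, and strand was used in VCaP and ignored in PC3, per the file headers. The submitters' processing notes name STAR 2.7.3a, GRCh37 and Subread 2.0.0. Between 54.8% and 75.2% of the nonzero values were not whole, and all were rounded.

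For each line, the 6 libraries were fitted separately (edgeR 4.0.16, R 4.3.3) with filterByExpr, TMM factors (0.959 to 1.04) and a two-sided quasi-likelihood test. Adjusted p-values follow Benjamini and Hochberg over all genes tested. A call was an adjusted p under 0.05, and the standard error was the size of the log2 fold change divided by the square root of F. The fits add a small prior count, which understates changes of genes near 0. The difference between lines was the interaction of a fit over all 12 libraries. CPM used the TMM-scaled totals, and RPKM also the exon length. The scripts were tested on simulated data.

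Totals ran from 48187047 to 188226483 counts. Biological coefficients of variation were 15.0% (PC3) and 9.90% (VCaP). The pairing check was the correlation across genes, on log2(CPM + 0.5), between deviations from the group mean in the NSI and siFOXA1 libraries of a number: 0.410, 0.571 and 0.209 in PC3 for numbers 1, 2 and 3 (other numbers −0.106, −0.405 and −0.0348) and 0.0922, 0.0363 and 0.350 in VCaP (other numbers −0.0206, 0.00146 and −0.212). All PC3 values exceeded 0.1, so the numbers were taken to pair PC3 libraries, whereas in VCaP only that of number 3 did and they were not. The labels do not say what a number shares, and no test set the cut of 0.1. Calls, counts and figures are from the fits without the block, also in PC3, unless the block is named. For the difference, the block used the numbers of both lines, those of VCaP included.

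The targets, the pathway and marker lists and the alternatives were chosen with earlier results of these data known. Targets are described by counts and medians, with no set test. All targets are named; other pathway genes were named from the 4 largest called changes in each direction and line at a mean level of 5 CPM or more, and NR3C1 was added after its values were seen. Some genes that this rule named are not reported here. Alternatives were DESeq2 1.42.0, its size factors, library size alone, no filter, the replicate block, a fit of all 12 libraries, leaving out each library, and TMM factors computed before the filter, which was chosen after seeing the data. The listed symbols PECAM1 and TARP were not matched.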

Additional observations from a re-analysis of the deposited data

Results flagged for a closer look

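The change after siFOXA1 differed between VCaP and PC3 for 19 of the 35 targets by the interaction test, and each value is the log2 change in VCaP minus that in PC3. The 7 targets that fell in VCaP and rose in PC3 differed by STEAP4 (−4.62), ACPP (−2.97), TRPM8 (−2.35), PTGER4 (−2.28), STEAP2 (−1.81), C1orf116 (−1.45) and HERC3 (−1.41). A more negative change in VCaP was also found for SLC45A3 (−2.77), TMEFF2 (−2.74), NNMT (−1.44), STEAP1 (−1.30), TPD52 (−0.75), ACSL3 (−0.74), PGM3 (−0.72), RAB4A (−0.58), CENPN (−0.51) and CAMKK2 (−0.49). Of these, NNMT rose in PC3 (1.83), at under 1 CPM in every library there, and was not called in VCaP (0.37). The change was more positive in VCaP for FKBP5 (2.02) and HPGD (0.49). The HPGD call was lost in 11 of 18 alternatives (adjusted p up to 0.151), while that of FKBP5 held in all 18.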

How the results depend on the processing

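Of the called targets, 11 of 15 in PC3, 21 of 27 in VCaP and 18 of 19 for the difference kept their direction and their call under every alternative run, and no called target changed sign. The calls lost were those of CENPN, LIFR, TRPM8 and TSC22D1 in PC3, ADAMTS1, HPGD, LIFR, STEAP4, TMPRSS2 and UAP1 in VCaP, and HPGD for the difference. In PC3, targets called lower numbered 6, 9 with the replicate block and 4 to 8 with a library left out (the fewest without siFOXA1 replicate 1); those called higher numbered 9, 15 with the block and 7 to 11 with a library left out. Targets with the more positive change in VCaP numbered 2, 1 with library size alone, 3 with DESeq2, 3 without the filter, 4 with the block and 1 to 3 with a library left out; MAF, with few PC3 counts, is among those with DESeq2, without the filter and with the block. The cause was not tested. The replicate block raised the genes called in PC3 from 7149 to 11297. In VCaP, where same-numbered libraries correlated at r = 0.0922, 0.0363 and 0.350 (other numbers −0.0206, 0.00146 and −0.212) and a pairing is uncertain, the block added OPRK1 (−0.41) and changed no other call of a target. Scaling by library size alone gave 2643 genes with the more positive and 3880 with the more negative change in VCaP, beside 3427 and 3333.

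Under the alternatives run, sign changes were seen only in targets that were not called. In PC3, EAF2 (−0.02) read 0.036 with library size alone, 0.0028 with the block and −0.19 to 0.15 with a library left out. ZBTB10 (0.02) read −0.0045 with DESeq2 size factors, −0.0045 with DESeq2, −0.015 without the filter, −0.015 with TMM factors before the filter and −0.079 to 0.094 with a library left out. TPD52 read −0.010 to 0.060 with a library left out. In VCaP, leaving out a library gave −0.15 to 0.042 for ELL2 and −0.029 to 0.13 for EAF2. For the difference, library size alone gave −0.053 for UAP1 and −0.017 for EAF2, and leaving out a library gave −0.076 to 0.097 for UAP1, −0.13 to 0.17 for EAF2, −0.039 to 0.21 for ZBTB10 and −1.77 to 0.12 for FOLH1. With 3 libraries a group, and few counts for STEAP4, TRPM8, TMEFF2 and TMPRSS2 in PC3, small changes may be missed.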
